A study of Danio rerio with 24 samples.

Results

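The nuclear factor I (NFI) genes nfia, nfic, nfixa and nfixb were examined in zebrafish brain tumors and in normal adult brain. The genes were chosen by name from a list of 5 (nfia, nfib, nfic, nfixa, nfixb). Of these, 4 had a row of that name among the 32266 genes of the count table, and nfib was not analysed here. In the gene annotation of the study the genes are nfia (ENSDARG00000062420), nfic (ENSDARG00000043210), nfixa (ENSDARG00000043226) and nfixb (ENSDARG00000061836).

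NFI proteins are transcription factors that bind palindromic DNA sites as dimers. In the developing central nervous system of mouse and chick, Nfia and Nfib switch neural progenitors from making neurons to making glia, acting after the HMG-box factor Sox9. In mouse, Nfix guides progenitor differentiation in the hippocampus and cerebellum, and Nfic is best known for the formation of tooth roots. Zebrafish carry the duplicate copies nfixa and nfixb of the ancestral Nfix gene.

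Tumor RNA came from 10 adult fish of the WIK strain that carried somatic lesions of the retinoblastoma 1 gene (rb1) made with TALENs (engineered nucleases that cut a chosen DNA site). Each such fish was a mosaic of edited and unedited cells. Control RNA came from 2 pools of 3 wild-type WIK brains each. Both groups were 6.5 to 10 months old per the labels. RNA was taken from 1 side of each brain only, without the regions in front of the diencephalon. The labels call the control tissue midbrain-hindbrain. Each of the 12 RNA samples gave a library a and a library b, whose counts were summed. In bulk samples of this kind fewer cells of a type and less RNA per cell cannot be told apart.

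Total counts were 18.5 to 24.95 M (mega) per tumor and 19.8 and 21.04 M in the pools. In tumors, the chi-square per degree of freedom between library replicates was 1.04 to 1.60, where 1 is sampling noise. Control libraries did not pair as labelled. Those of the same letter from different pools differed by 1.00 and 1.01, whereas those of different letters, including the a and b libraries of one pool, differed by 3.25 to 3.42. Control SDs are therefore those of the control libraries summed by letter (n = 2). The study's supplement states that replicates A and B were run in separate lanes, so letter and lane cannot be told apart. Over all genes the pools as labelled, which agree within sampling noise, understate the control spread. For nfic alone of the NFI genes the pools (10.0 and 7.93 CPM) lay further apart than the sums by letter (8.22 and 9.70 CPM). Its counts before scaling were equally far apart, at 207 and 175 in pools 1 and 2 and 175 and 207 in the sums of letters a and b. The targeted gene rb1 was 18.8 to 101 CPM (counts per 1 M counts, after scaling) in tumors. In the pools rb1 was 13.1 and 14.6 CPM. It was higher in 10 of 10 tumors, as for 31.5% of the genes tested. The change missed the study's threshold on adjusted p, given below, and was not called (log2 fold change 1.47, SE 0.61, adjusted p = 0.0481 in edgeR). TALEN lesions need not lower the count of a transcript. All 9 cerebellar granule neuron markers and 17 of 19 mature neuron markers tested were called lower in tumors. Over all genes tested, 24.9% were called lower and 22.8% higher. The other mature neuron markers tested were elavl3, called higher (log2 fold change 1.13, SE 0.13, adjusted p = 1.44e-05, edgeR), and gap43, not called. Of the proliferation markers, 13 of 13 were called higher. The midbrain-hindbrain sums held only pax7a, pax7b and otx2, since en1b, en2a and en2b had no row of that name. These 2 sums in the pools (218 and 227 CPM) were above the tumor sums (9.40 to 55.9 CPM). Telencephalon markers summed to 6.10 to 11.3 CPM in tumors and to 41.8 and 44.7 CPM in the pools, and 4 of 4 tested were called lower (median log2 fold change -2.73).

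The NFI genes did not move together. In tumors nfia was lower and nfic was higher than in normal brain, both past the threshold of the study (at least 1.5-fold, with an adjusted p no higher than 0.01). The level of nfixb was below both pools in every tumor, as for 32.8% of the genes tested, but missed the threshold. The levels of nfixa overlapped the pools. Thus 1 of 4 genes was called higher and 1 of 4 lower. Of the 20957 genes tested, 47.7% were called, 22.8% higher and 24.9% lower, so the called share of the NFI genes was close to that of all genes.

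**Figure D1:**
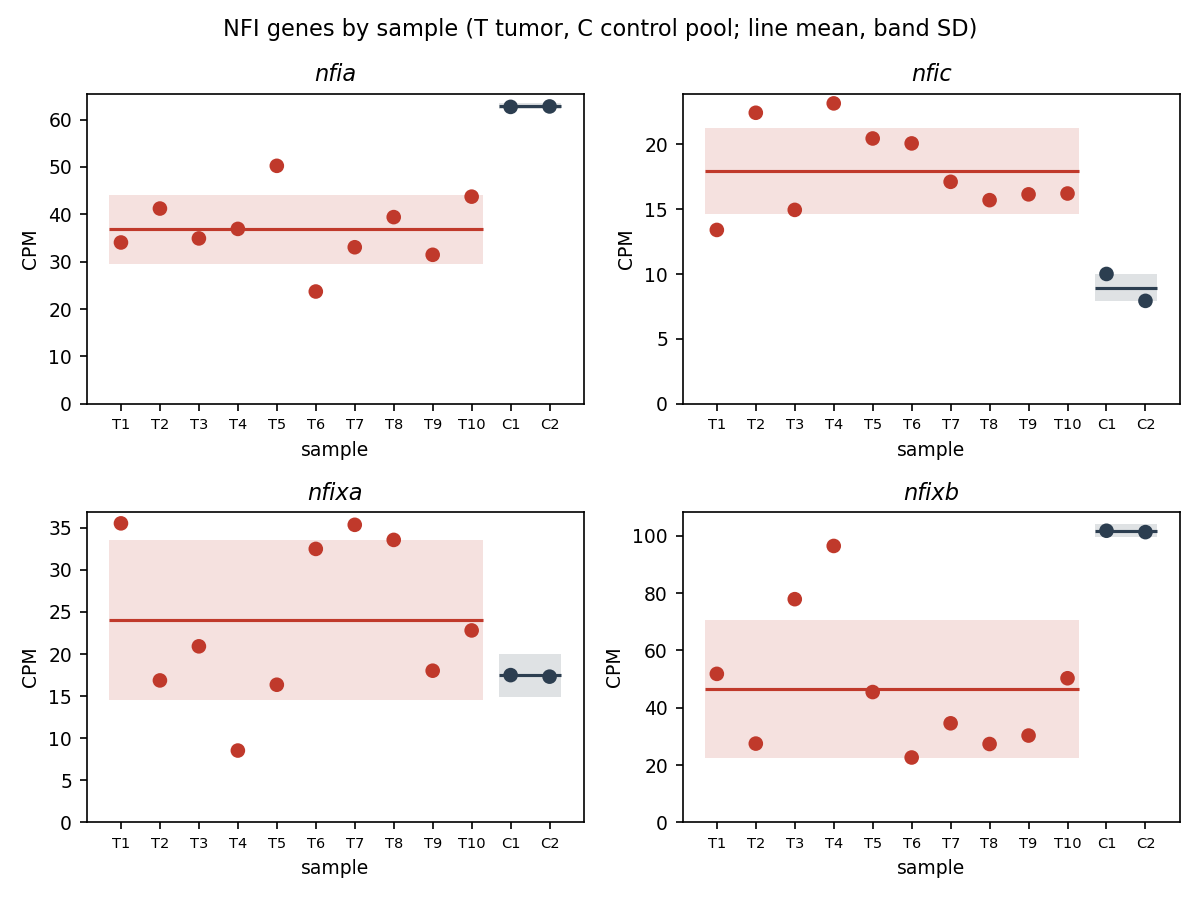
Normalized level (CPM, vertical axis from 0) of each NFI gene in the 10 tumors (T, red) and 2 control pools (C, dark). Points are samples, lines are means and bands are 1 SD (tumors n = 10, control sums by letter n = 2). All tumors are below the pools for nfia and nfixb and above them for nfic, while nfixa overlaps.

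The gliogenic factor gene nfia was at 23.7 CPM in the lowest tumor (tumor 6), 35.9 CPM in the median and 50.2 CPM in the highest (tumor 5). The pools were at 62.7 and 62.8 CPM. The groups did not overlap, and every tumor was below both pools, as were all tumors for 32.8% of the genes tested. Tumors averaged 36.9 ± 7.30 CPM (SD, n = 10), compared with 62.9 ± 0.594 CPM for control sums (SD, n = 2). The log2 fold change was -0.77 (SE 0.19, adjusted p = 0.0038, quasi-likelihood test of edgeR, adjusted over all genes by Benjamini-Hochberg), that is 0.588 of the control level. The call was lost when either control pool was left out, with the log2 fold change at -0.77 in both cases and adjusted p of 0.0353 without pool 1 and 0.0363 without pool 2. It was also lost in the test against a 1.5-fold change (glmTreat, adjusted p = 0.132).

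The gene nfic was the least abundant NFI gene in normal brain and the only one called higher in tumors. Its levels in tumors ran from 13.4 CPM (tumor 1) through a median of 16.6 CPM to 23.1 CPM (tumor 4). The pools were at 10.0 and 7.93 CPM. All tumors were above both pools, as for 31.5% of the genes tested, although the gap between tumor 1 and pool 1 was small. Tumors averaged 17.95 ± 3.33 CPM (SD, n = 10), compared with 8.96 ± 1.05 CPM for control sums (SD, n = 2). The change was 2.002-fold, or 1.00 on the log2 scale (SE 0.22, adjusted p = 0.00152, edgeR). Without pool 2, the lower of the pools, the log2 fold change was 0.84 and the adjusted p was 0.0393, and with glmTreat the adjusted p was 0.0248, so the call was lost in both cases.

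The duplicate gene nfixb was the most abundant NFI gene in normal brain and varied widely among tumors. It was at 22.6 CPM in tumor 6, 40.0 CPM in the median tumor and 96.5 CPM in tumor 4. The pools were at 102 and 101 CPM. Every tumor was below both pools, as were all tumors for 32.8% of the genes tested. Tumor 4 lay just under the pools and tumor 3, at 77.9 CPM, was the next highest, while the other 8 were at 51.8 CPM or less. Tumors averaged 46.4 ± 24.1 CPM (SD, n = 10), compared with 102 ± 2.39 CPM for control sums (SD, n = 2). The log2 fold change of -1.13 (SE 0.43, adjusted p = 0.0344, edgeR) missed the threshold of 0.01. Without tumor 4 it was -1.31 with an adjusted p of 0.00652, and the gene was called. Leaving out any other single tumor did not give a call. The log2 fold change was -0.99 without tumor 2 (adjusted p = 0.0614, edgeR) and -0.99 without tumor 8 (adjusted p = 0.0621, edgeR). It was -1.13 without pool 1 and -1.13 without pool 2. With glmTreat the adjusted p was 0.1001.

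Tumors 4 and 3 also had the highest sums of cerebellar granule neuron markers, 672 and 494 CPM, against 106 to 418 CPM in the other tumors and 2940 and 2969 CPM in the pools. Their sums of radial glia markers were 2821 and 2441 CPM, against 1097 to 2152 CPM in the others and 8343 and 8286 CPM in the pools. Across all 10 tumors, Pearson's r of nfixb with the granule neuron sums was 0.46 (permutation p = 0.181, adjusted p = 0.69). With the radial glia sums it was 0.36 (permutation p = 0.298, adjusted p = 0.69). These lists were picked after the data had been seen. The largest absolute r of nfixb was with the oligodendrocyte precursor sums (-0.60, permutation p = 0.0642, adjusted p = 0.671). With the proliferation sums it was -0.48 (permutation p = 0.161, adjusted p = 0.69). None of these relations was significant. Beyond them, the part of granule neurons and radial glia in the nfixb levels was not tested. In tumors 4 and 3 the sums of mature neuron markers were 3954 and 3982 CPM. These sums were below that of tumor 9 (4552 CPM, with nfixb at 30.3 CPM) and above the other 7 tumors (2105 to 3722 CPM).

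The copy nfixa showed no shift between the groups that passed the threshold. It ran from 8.53 CPM in tumor 4 through a median of 21.9 CPM to 35.5 CPM in tumor 1, against 17.5 and 17.3 CPM in the pools. Of the tumors, 7 were above both pools and 3 (tumors 2, 4 and 5) were below both. Tumors 1, 6, 7 and 8 formed the upper values, between 32.5 and 35.5 CPM. Tumors averaged 24.04 ± 9.55 CPM (SD, n = 10), compared with 17.5 ± 2.54 CPM for control sums (SD, n = 2). The log2 fold change was 0.47 (SE 0.43, adjusted p = 0.36, edgeR).

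The spread among tumors was larger than that between library replicates, and it was largest for the nfix copies. The SD of log2 CPM between tumors was 0.66 for nfixa and 0.69 for nfixb, compared with 0.30 for nfia and 0.26 for nfic. Between libraries a and b of one tumor the SD was 0.07 to 0.11 for the 4 genes. The highest tumor was 4.16 times the lowest for nfixa and 4.26 times for nfixb, but 2.12 times for nfia and 1.73 times for nfic.

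**Figure D2:**
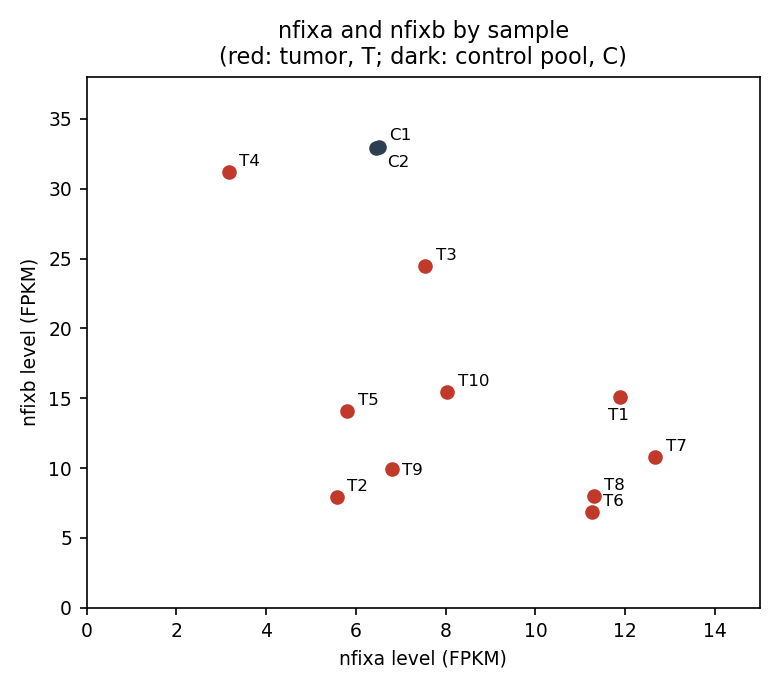
Level of nfixb against nfixa (both FPKM, axes from 0), 1 point per tumor (T, red) and control pool (C, dark). The pools overlie each other, tumor 4 has the lowest nfixa and the highest nfixb of the tumors, and in tumors 6, 7 and 8 nfixa is above nfixb.

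Levels of different genes were compared per exonic length as FPKM (fragments per kilobase of exon per 1 M mapped reads). In normal brain the order was nfixb (33.0 FPKM), nfia (17.7 FPKM), nfixa (6.49 FPKM) and nfic (3.71 FPKM), with SDs of 0.262 to 0.978 FPKM (n = 2). In tumors the means kept that order but lay closer together, at 14.4 ± 7.87 FPKM for nfixb, 9.84 ± 1.93 for nfia, 8.41 ± 3.21 for nfixa and 7.06 ± 1.36 for nfic (SD, n = 10). Neighbours in this order did not differ beyond their spread in tumors. The within-tumor difference was 4.53 FPKM between nfixb and nfia (SD 7.60), 1.44 FPKM between nfia and nfixa (SD 4.56) and 1.34 FPKM between nfixa and nfic (SD 4.27). The highest NFI gene was nfixb in both pools and in 6 tumors, nfixa in 3 tumors and nfia in 1 tumor. The lowest was nfic in 6 tumors, nfixa in 3 and nfia in 1.

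The summed level of the 4 genes was 39.7 ± 7.23 FPKM in tumors (SD, n = 10; range 32.1 to 54.3) and 60.9 ± 0.227 FPKM in control sums (SD, n = 2), and no tumor reached the pools. The makeup of the sum differed as well. In normal brain nfixb gave 54.1% of it, nfia 29.1%, nfixa 10.7% and nfic 6.10%. In tumors nfixb gave 34.4 ± 12.02%, nfia 25.2 ± 5.24%, nfixa 22.2 ± 9.56% and nfic 18.2 ± 4.46% (SD, n = 10). The share of nfic was 12.3% to 25.8% across the tumors, all above the pools at 6.77% and 5.46%. The share of nfixb was 57.4% in tumor 4, above the pools, and 21.3% in tumor 6.

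**Figure D3:**
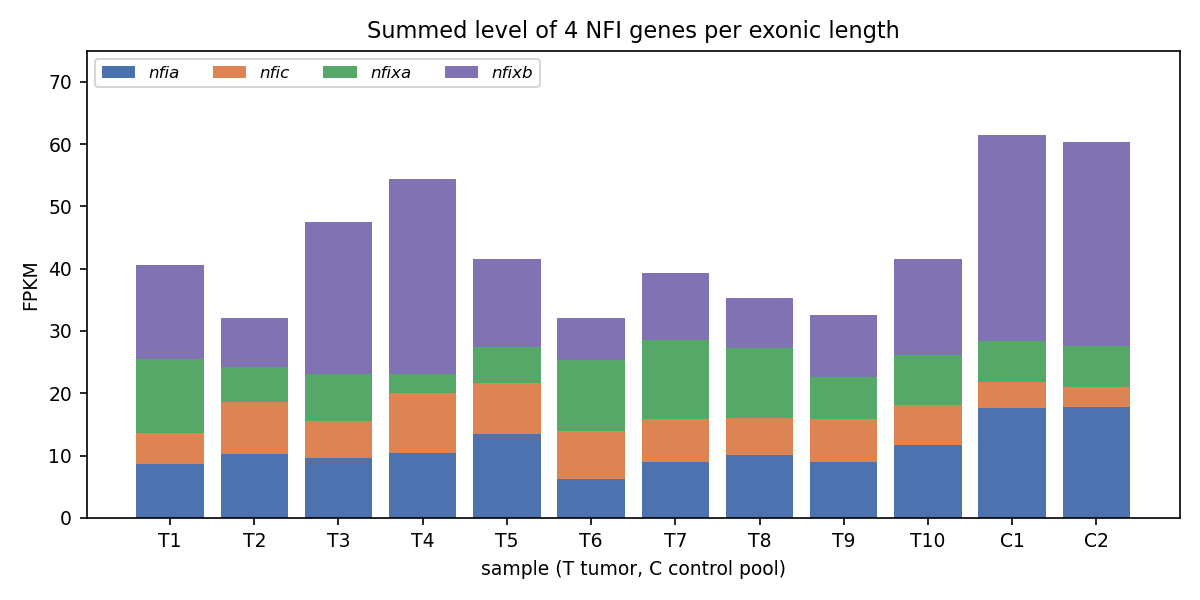
Stacked FPKM of nfia, nfic, nfixa and nfixb in each tumor (T) and control pool (C); bars start at 0 and bar height is the sum. All tumor bars are shorter than the pools, and the nfixb segment is shorter in every tumor than in the pools.

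Ratios of 2 NFI genes within a sample do not depend on the scaling between samples, and 6 were compared with a two-sided exact permutation test over 66 assignments of the 12 samples. The p was taken by doubling the smaller tail, so that the smallest p this design allows is 0.0303. The ratio of nfia to nfic was lower in tumors by 1.78 on the log2 scale, with tumor values of -0.32 to 0.88 against a control mean of 2.26 (SD 0.18, n = 2). The ratio of nfic to nfixb was higher by 2.27, with tumor values of -2.02 to 0.18 against a control mean of -3.15 (SD 0.14, n = 2). Every tumor was below the controls for nfia and nfixb and above them for nfic, so these ratios had to separate the groups. Their p-values restate that separation and add no support to it. For both ratios all 10 tumors were on one side of both control sums, and both reached the smallest exact p of 0.0303. After Benjamini-Hochberg adjustment over the 6 ratios it was 0.0909, which does not pass 0.05. That verdict depends on the doubling. Counting instead the assignments with as large an absolute difference, a choice made after seeing the data, gave an exact permutation p of 0.0152 and an adjusted p of 0.0455 for both. The ratio of nfixa to nfixb was higher in 9 of 10 tumors (difference 1.64, exact permutation p = 0.121, adjusted p = 0.182), the exception being tumor 4. The ratio of nfia to nfixa was lower in 9 of 10 tumors (difference -1.15, exact permutation p = 0.121, adjusted p = 0.182). The ratios of nfia to nfixb and of nfic to nfixa differed by 0.49 and 0.64 (exact permutation p = 0.303 for each, adjusted p = 0.303).

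Across the 10 tumors the NFI genes were compared with each other in 6 pairs, and none passed an adjusted p of 0.05 in a permutation test. The closest was nfic with nfixa, for which Pearson's r was -0.65 (permutation p = 0.0427, adjusted p = 0.256) and Spearman's rho was -0.68 (permutation p = 0.0352, adjusted p = 0.211). Without tumors 2 and 4, the farthest from the median of nfic, r was -0.28, so the relation rests on those tumors. For nfixa and nfixb, r was -0.55 (permutation p = 0.102, adjusted p = 0.307) and rho was -0.25 (permutation p = 0.494, adjusted p = 0.616), with r at -0.34 without tumors 1 and 4. The other 4 pairs had r between -0.37 and 0.31 (adjusted p from 0.571 to 0.903).

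The genes whose pattern over the 10 tumors was most like that of an NFI gene were taken from the 11010 genes that averaged 10 CPM or more in tumors, by Pearson's r of log2 CPM. These values are a description, since all genes share the same libraries. For nfia they were rab5ab, a Rab GTPase gene (r = 0.95), the Hippo pathway kinase gene lats2 (0.90) and gpr137ba (0.90). For nfic they were iffo2a (0.92), si:ch211-232i5.1 (0.92, with 0 to 42.3 CPM in tumors) and wbp2nl (0.92). For nfixa they were amotl2a, an angiomotin-like gene (0.93), si:dkey-56e3.3 (0.91) and tk1, the thymidine kinase gene of the DNA synthesis pathway (0.91). For nfixb they were plekhb2 (0.91), the respiratory complex III subunit gene uqcrfs1 (0.91) and the vacuolar proton pump subunit gene atp6v1ab (0.89).

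Genes related to NFI function were grouped in 4 lists by role. Counts called in each list stand beside 22.8% higher and 24.9% lower among all genes tested. The list of upstream regulators and partners held 12 genes and was chosen with earlier results of these data known. It holds sox10 and olig2, which the study had reported as raised in these tumors, and counts duplicate copies separately. Of the 12 genes, 8 were called higher and 1 lower (median log2 fold change 1.88, against 0.09 for all genes tested). Among them, sox9b, a zebrafish copy of the gene that induces Nfia in the mouse spinal cord, was 1125 to 1982 CPM in tumors and 38.4 and 40.2 CPM in the pools (log2 fold change 5.24, SE 0.24, adjusted p = 9.4e-09, edgeR). No tumor was near the pools, and nfia was lower in the same samples. The oligodendrocyte lineage genes sox10 and olig2, whose products restrain Nfia function in mouse, rose by 4.78 and 3.56 on the log2 scale (SE 0.29 and 0.30). The Notch receptor gene notch1a rose by 3.36 (SE 0.42). The called gene that fell was etv1, whose mouse product acts with NFI in maturing granule neurons, at 3.56 to 29.5 CPM in tumors against 146 and 149 CPM in the pools (log2 fold change -3.48, SE 0.45). The POU factor genes pou3f2a and pou3f2b were at log2 fold changes of 0.02 and -0.02 (SE 0.19 and 0.16), and were not called.

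Of the 10 glial genes, several of which are bound or activated by NFI in mouse, 9 were tested. Of these, 2 were called higher and 1 lower (median log2 fold change -0.50). Among all genes tested, 22.8% were called higher and 24.9% lower, so the share called higher in this list was close to that of all genes. The genes Apcdd1, Mmd2 and Zcchc24 are joint targets of Sox9 and Nfia in the mouse spinal cord, and their zebrafish relatives did not move one way. The level of zcchc24 was 163 to 368 CPM in tumors and 38.4 and 36.1 CPM in the pools (log2 fold change 2.97, SE 0.27). The level of apcdd1l, a gene of low counts, was 0.0496 to 0.713 CPM in tumors and 2.17 and 1.81 CPM in the pools (log2 fold change -2.36, SE 0.59), and its call was lost without either pool (adjusted p = 0.0440 without pool 1 and 0.0247 without pool 2) and with library a alone (adjusted p = 0.0283, edgeR). On the log2(FPKM + 1) scale, which understates changes of low genes, its difference was -0.56, under 1.5-fold. The log2 fold change of mmd2a was -0.26 (SE 0.31), not called, and mmd2b was too low to test. The apolipoprotein gene apoeb, which microglia also express, was called higher (log2 fold change 2.66, SE 0.47). Of 12 microglia and macrophage markers, 8 were called higher in tumors, with sums of 696 to 2789 CPM against 383 and 380 CPM in the pools. That count depended on the test, with 3 called higher by glmTreat and 11 by DESeq2 when both pools were kept. It also depended on the pools, and did not hold when either was left out. The part of these cells in the apoeb level was not tested. The astroglial genes gfap, slc1a3b and fabp7a, named after their values were seen, were at log2 fold changes of -0.67, -1.31 and -0.50 and were not called (adjusted p = 0.201, 0.037 and 0.151, edgeR). Their copies slc1a3a and fabp7b, the latter of low counts, were at -0.51 and 1.06 (SE 0.32 and 1.22) and were not called. Of 11 radial glia markers tested, 9 were called lower.

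Of 10 genes that NFI proteins regulate in maturing mouse cerebellar granule neurons, 5 were called lower and 2 higher (median log2 fold change -1.31). The shares over all genes tested were 24.9% lower and 22.8% higher. The largest falls were those of the NMDA receptor subunit genes grin2ca (log2 fold change -3.75, SE 0.46) and grin2cb (-3.03, SE 0.42), the GABA receptor subunit gene gabra6b (-3.50, SE 0.63) and the adhesion gene cntn2 (-1.98, SE 0.27). For grin2ca the tumors were at 1.61 to 16.4 CPM and the pools at 100 and 104 CPM. All 9 general granule neuron markers fell too (median -3.11), and the tumor sums of 106 to 672 CPM lay far below those of the pools; their part in these changes was not tested. The 2 genes called higher were wnt7aa, a Wnt ligand gene (2.48, SE 0.48), and ncam1a, an adhesion gene (1.84, SE 0.18). The second copy ncam1b was at -0.37 (SE 0.19) and was not called. The call for wnt7aa was lost without pool 1 (adjusted p = 0.0139).

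The last list held progenitor genes, among them relatives of mouse genes that NFI proteins repress. Of 4 tested, 2 were called higher and 1 lower (median log2 fold change 1.64), against 22.8% higher and 24.9% lower of all genes tested. The study had already reported sox2 as raised in these tumors. The polycomb methyltransferase gene ezh2 was 66.8 to 137 CPM in tumors and 13.2 and 12.4 CPM in the pools (log2 fold change 3.03, SE 0.28), and the stem cell factor gene sox2 was higher by 4.22 (SE 0.24). In contrast, her6, a relative of the Notch target Hes1, was 8.55 to 26.9 CPM in tumors and 35.8 and 33.9 CPM in the pools (log2 fold change -1.30, SE 0.33, adjusted p = 0.00377, edgeR). The her6 call was lost without either pool (adjusted p = 0.0387 without pool 1 and 0.0290 without pool 2) and with glmTreat (0.0216). The gene bbx, repressed by Nfix in mouse, was at 0.24 (SE 0.17) and was not called. All 13 proliferation markers rose (median 5.57, sums of 3909 to 6357 CPM against 124 and 130 CPM in the pools), and their part in the ezh2 and sox2 levels was not tested.

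**Figure D4:**
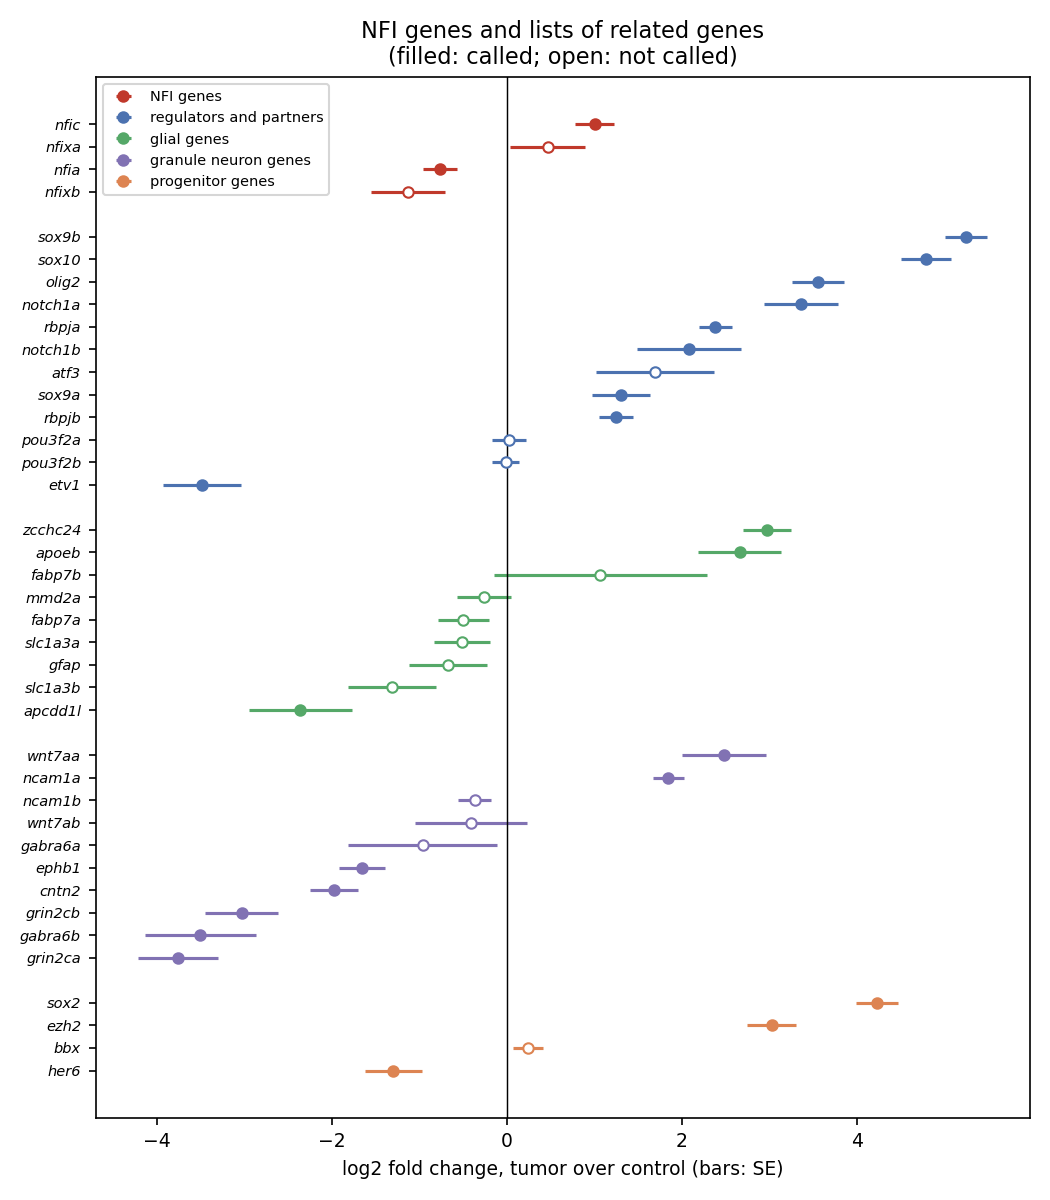
Log2 fold change of tumor over control (horizontal axis) for the NFI genes and the tested genes of the 4 lists. Bars are SE derived from the edgeR F statistic over 10 tumors and 2 pools. Filled points were called and open points were not. The NFI genes lie between -1.13 and 1.00, inside the spread of the upstream genes sox9b (5.24) and etv1 (-3.48).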

How the data were processed

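RNA-Seq was analysed for 10 tumors and 2 control pools (24 libraries). The members of the NFI list, the other gene lists and the tests were chosen with earlier results of these data known. The authors deposited whole-number counts per Ensembl gene, and FPKM values that they computed from counts, exonic length and mapped reads. Recomputed FPKM differed by at most 3.49e-07 (relative). The deposited exonic length in bp is another column of the authors' tables. The submitters' processing notes name GSNAP, HTSeq, DESeq2 and GRCz10. The study's methods state these steps, with uniquely mapped reads only, under its larval libraries, and they were assumed for the tumors. Reads shared by nfixa and nfixb are then missing, and since use of strand is not stated, the genes si:ch73-196i15.3 and nme4, which overlap nfic and nfixb in RefSeq assembly GRCz12tu, could share reads with them. The authors' comparison table (fold changes, p-values) was not used.

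Counts of libraries a and b were summed and tested in edgeR 4.0.16 under R 4.3.3 (quasi-likelihood F test, TMM scaling, filterByExpr, Benjamini-Hochberg adjustment over 20957 genes). Each SE of a log2 fold change is an approximation, the absolute log2 fold change divided by the square root of its F statistic. Each tumor came from a different fish, but the labels do not say how the pools were drawn. The p-values measure the spread between tumors and between the pools as labelled, which over all genes understate the control spread. Alternatives were DESeq2 1.42.0, limma 3.58.1 on log2(FPKM + 1) and log2(FPKM + 0.1), scaling by library size, RLE or upper quartile, no filter, at least 10 counts in every sample, glmTreat, 1 library letter alone, control sums by letter, leaving out each sample and a replicate block. Ratios and relations used 6 pairs, since 4 genes had rows, with scipy 1.17.1 and 100000 permutations for relations. The test was tried on simulated counts. Named genes were the NFI genes, rb1 and at most 4 called genes per NFI-related list and direction. They also included at most 2 markers per list and the 3 genes most alike to each NFI gene (log2(CPM + 0.5)). Exceptions are marked, not called, or named to show what a marker list held.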

Additional observations from a re-analysis of the deposited data

Results flagged for a closer look

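No NFI gene had a tumor that stood apart from the other 9 by Dixon's criterion, which compares the gap to the nearest sample with the whole range and marks about 1 in 20 groups by chance. Of 62 groups of tumor values tested, 6 were marked. Among the related genes and markers, zcchc24 was lowest in tumor 2, at 163 CPM, with the next tumor at 261 CPM. The antigen presentation gene cd74b was highest in tumor 1, at 707 CPM, with the next tumor at 396 CPM. Tumor 10 was highest for the hemoglobin genes, at 84.5 CPM for hbaa1 and at 267 and 29.9 CPM for the 2 rows named hbba1, and its sum of erythrocyte markers was 584 CPM, with the next tumor at 185 CPM. In tumor 10, nfia was at 43.7 CPM, nfic at 16.2 CPM, nfixa at 22.8 CPM and nfixb at 50.3 CPM, all inside the range of the other tumors.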

How the results depend on the processing

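The direction of nfia, nfic, nfixa and nfixb was kept in all alternatives run. The calls of nfia and nfic were lost with glmTreat (log2 fold change -0.77 and 1.00, adjusted p = 0.132 and 0.0248), where 3158 genes were higher. Leaving out 1 sample gave -0.83 to -0.71 for nfia, 0.84 to 1.18 for nfic, 0.38 to 0.59 for nfixa, -1.31 to -0.99 for nfixb and 2904 to 5046 genes higher; the fewest came without pool 2, and without pool 1 there were 2949. With 1 pool left, that pool is assumed to vary like the tumors. With control sums by letter, nfia was at -0.78 (adjusted p = 0.00336) and nfic at 0.99 (adjusted p = 0.00159). With a replicate block, for which tumors 1 and 2 share only a number with the pools (correlation of deviations 0.012 for each number), nfia was at -0.77 (adjusted p = 0.0131), nfic at 0.93 (adjusted p = 0.0735), and 3371 genes were higher and 3686 lower. With p from absolute differences in place of doubled tails, the ratios of nfia to nfic (-1.78) and nfic to nfixb (2.27) passed 0.05 (adjusted exact p = 0.0455). The separation in these ratios was already given by the levels of the single genes. The log2 fold change of apcdd1l ran from -4.35 with the replicate block to -0.56 on log2(FPKM + 1). The median log2 fold change of all genes was 0.09 with TMM, 0.01 with library size scaling and -0.02 on log2(FPKM + 1). Signs turned for cdh5 and for 3 correlations. The endothelial gene cdh5 was at 0.0019 with no filter, 0.096 with library b alone, 0.094 with the replicate block and -0.078 to 0.052 with a sample left out. The r of nfic and nfixb was 0.080 with library size scaling, 0.095 on log2(FPKM + 1) and -0.54 to 0.13 with a tumor left out. The r of nfia and nfixb, 0.31 over all 10 tumors, was -0.047 without the 2 farthest tumors and -0.022 to 0.41 with a tumor left out, and that of nfia and nfic -0.038 to 0.45. Depth limited low genes such as apcdd1l more than the NFI genes, which had at least 175 counts in every sample.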

Other observations

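The levels of the NFI genes were set against the sums of 11 lists of cell type and proliferation markers across the 10 tumors, after the data had been seen. Of 44 relations, none passed an adjusted p of 0.05 by Pearson's r or Spearman's rho, and 1 by each measure had an unadjusted permutation p under 0.05. By Pearson's r it was nfixa with the oligodendrocyte precursor markers, which were 1457 CPM in tumor 4, where nfixa was lowest, and 2237 CPM in tumor 1, where nfixa was highest. That sum was mainly gpr17, with a tumor mean of 1305 CPM, then sox8b (328 CPM) and nkx2.2a (303 CPM), all called higher. The other tested markers of the list, olig1 and cspg4, averaged 1.85 and 1.97 CPM in tumors and were called lower. Pearson's r was 0.78 (permutation p = 0.0102, adjusted p = 0.449) and Spearman's rho was 0.64 (permutation p = 0.0542, adjusted p = 0.758). Without tumors 1 and 4, r was 0.30, so the relation rests on those tumors. By Spearman's rho it was nfic with the erythrocyte markers (rho -0.76, permutation p = 0.0151, adjusted p = 0.664), for which Pearson's r was -0.59 (permutation p = 0.0645, adjusted p = 0.671) and -0.90 without tumors 6 and 10.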
